A study of Bos taurus with 8 samples.

Results

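The interferon response and antigen presentation genes were a list of 55 bovine genes, 24 of which had a probe that could be named on the arrays, out of 7788 genes named there in all. A probe was named through its RefSeq accession, and a gene counted as present when the symbol of that accession was on the list. The 24 genes had 26 probes, since *herc6* and *rsad2* had 2 each and were represented by the brighter one. Of the 24 genes, 22 were tested and *ifit3* and *oas2* were not, because *ifit3* was well above background in 2 of 16 channels and *oas2* in 0 of 16. No gene passed the filter through the beef channel or the HF channel alone, and 21 of the 24 were well above background in all 16 channels. The other 31 genes of the list, *stat2*, *irf1*, *irf7*, *tap1*, *tap2*, and *bst2* among them, had no named probe and were not analysed here.

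The cells were primary cultures from the semitendinosus muscle, a hindlimb muscle, of 15-month-old bulls of 3 breeds, the beef breeds LIM (Limousin) and HER (Hereford) and the dairy breed HF (Holstein-Friesian), with 4 bulls of each. All cultures were untreated and were harvested while proliferating, at 80% confluence, in medium with fetal bovine serum. On 8 two-colour arrays a beef culture and an HF culture were hybridised together, 4 arrays per beef breed, with LIM in Cy5, HER in Cy3, and HF in the other dye each time. Each value is a log2 ratio of beef over HF on one array, so 1 is a doubling in the beef culture and -1 a halving. All arrays of one beef breed were on one slide in one dye orientation, and within LIM or HER the effects of breed, dye, and slide cannot be told apart. The mean of both breeds balances the dyes and is called the beef mean. Which HF bull was on which array was not given in the sources used here. The HF channels of same-numbered LIM and HER arrays correlated at 0.56 to 0.78 across probes, after array and comparison means were removed, and those of differently numbered arrays at 0.02 or less, so the arrays were read as pairs that share an HF culture. The LIM and HER comparisons then share their controls, and p-values measure the spread between arrays. Standard errors, intervals, and p-values of the beef mean (n = 8) treat the arrays as independent. With shared HF cultures they are not, so these errors and p-values may be too small. With same-numbered arrays averaged before the limma fit, 7 genes were called in the beef mean, the 6 named below and *xaf1*.

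Interferons are secreted proteins that bind receptor chains on the cell surface and, through Janus kinases and a complex of STAT proteins with IRF9, switch on a large set of genes. Their products block steps of viral growth, tag proteins with the ubiquitin-like ISG15, and raise the display of peptides on major histocompatibility complex (MHC) class I molecules. Muscle precursor cells carry these receptors and keep a basal level of many of the genes without infection.

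Each array had 44407 spots, with 68.8% to 85.2% of probes detected well over background per channel. Cell type markers were read beside the genes. All 9 myogenic markers tested were well above background in all 16 channels, and 8 of them were higher in the beef mean. Of 8 fibroblast markers 7 were higher and 1, *pdgfra*, was lower in the beef mean (-1.42, limma adjusted p = 0.000313). The summed intensity of all 8 ran from 365000 to 789000 in LIM against 63800 to 228000 in HF on the same arrays. In HER it ran from 280000 to 547000 against 55400 to 155000 in HF. Of 8 leukocyte markers with a probe, 5 were tested, 1 was higher (*cd68*) and 1 was lower (*cd79a*). The leukocyte sum was 5760 to 11700 in LIM against 5650 to 6920 in HF and 3350 to 6890 in HER against 3450 to 6030 in HF. The T cell marker *cd3e* was well above background in 1 of 16 channels, *aif1* in 2, and *itgam* in 0. The 5 tested markers were detected more widely, *cd14*, *laptm5*, and *cd79a* in all 16 channels, *lyz* in 14, and *cd68* in 13. Among 5 endothelial markers none was called in the beef mean by limma (1 at an unadjusted p of 0.05), and among 5 adipocyte markers 2 were higher and 1 was lower. The part of cell makeup in the values that follow was not tested, and in bulk RNA fewer cells of a type and less RNA per cell cannot be told apart.

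The genes did not move together. *Isg15* and *trim21* were lower in beef cultures, whereas *mx1* and the antigen presentation genes *tapbp*, *jsp.1*, and *bola* were higher, and the other 16 tested genes were not called in the beef mean. A gene was called when its Benjamini-Hochberg adjusted limma p was at most 0.05 over all 17631 probes tested and its fold change was at least 1.3. In the beef mean 6 of 22 genes (27.3%) were called, against 38.1% of all probes. Of these, 4 were higher and 2 lower, where 17.7% of all probes were higher and 20.4% lower. In LIM 6 of 22 (27.3%) were called against 34.3% of all probes, with 3 genes higher (16% of all probes) and 3 lower (18.3% of all probes). In HER 3 of 22 (13.6%) were called against 24.4%, with 1 gene higher (10.4% of all probes) and 2 lower (14% of all probes). In each comparison the share called among these genes was below that of the array as a whole, a difference that was not tested. At an unadjusted p of 0.05 with the same fold, 9 genes passed in the beef mean (41% of all probes), 9 in LIM (41.6%), and 6 in HER (34.8%). With the methods' t-test after adjustment, *samhd1* alone was called in LIM and none in HER, and with normexp background correction on the measured local backgrounds none of all probes was called in HER. The median log2 ratio of the 22 genes was 0.05 in the beef mean, 0.21 in LIM, and -0.06 in HER, beside -0.04, -0.01, and -0.06 over all probes. The median size of the ratio, sign aside, was 0.30 in the beef mean against 0.33 over all probes. *Isg15*, *trim21*, *tapbp*, and *jsp.1*, 4 of 22 genes (18.2%), kept the same sign on every array, as did 28.6% of all probes. On HER replicate 4 the *jsp.1* ratio was 0.01 and its duplicate spots differed by 0.34, so its sign there is not resolved.

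**Figure D1:**
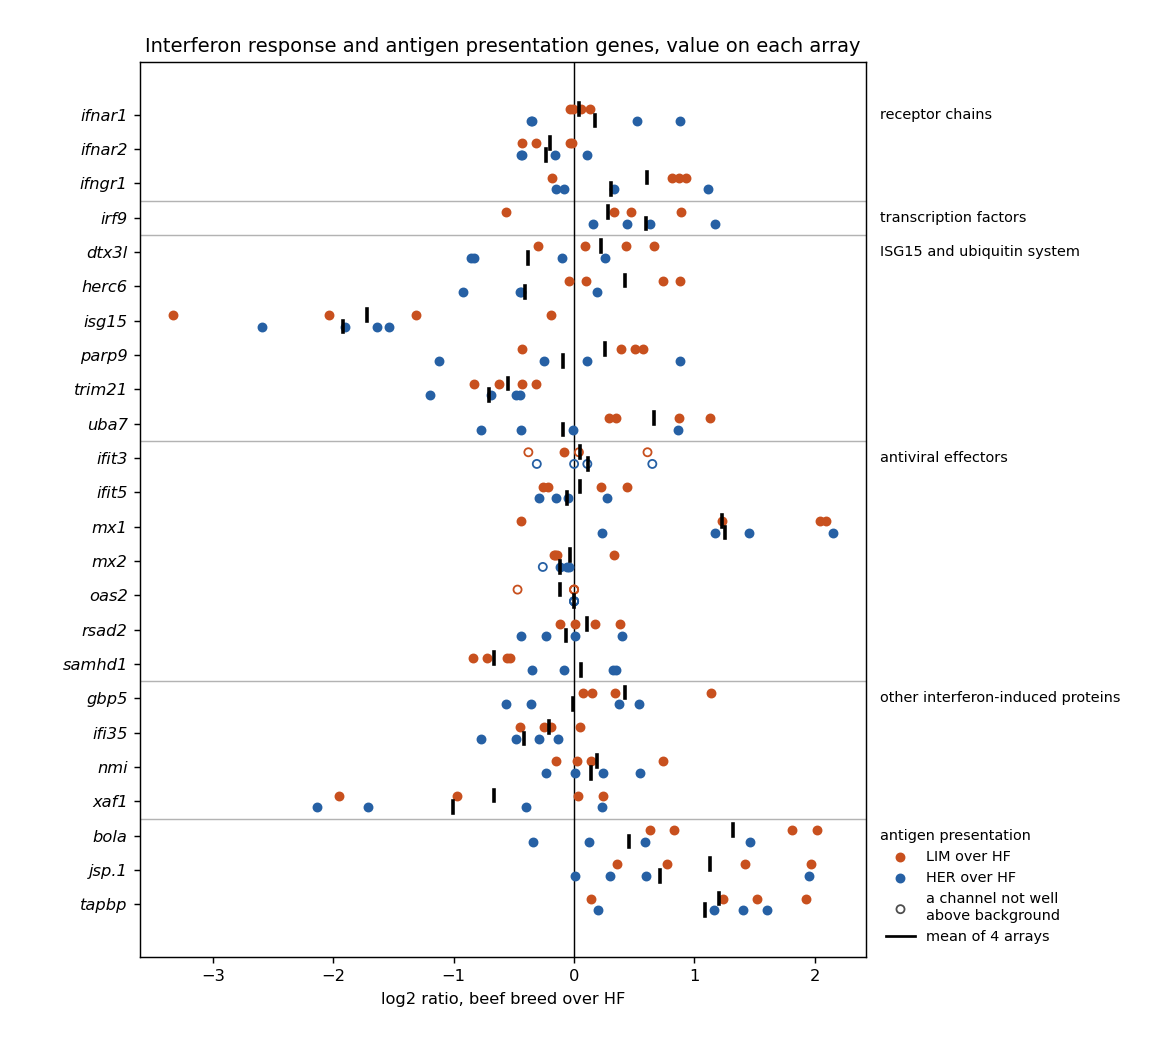
Log2 ratio of beef over HF (x axis) on each array for the 24 genes with a named probe, grouped by role, with LIM arrays in orange, HER arrays in blue, and a bar at the mean of 4 arrays; open circles mark arrays with a channel not well above background. *Isg15* lies to the left of 0 on all 8 arrays, between -3.33 and -0.19, and *tapbp* to the right on all 8, between 0.14 and 1.93.

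**Figure D2:**
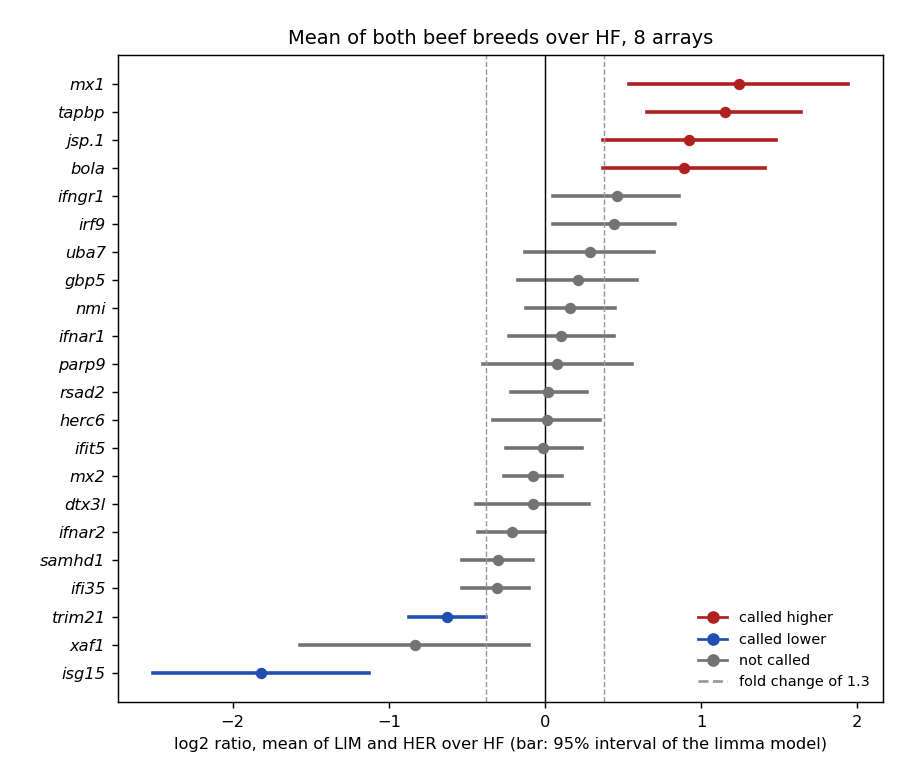
Mean log2 ratio of LIM and HER over HF (x axis) for the 22 tested genes, ordered by value, with the 95% interval of the limma model as a bar. The 4 genes called higher lie between 0.89 and 1.24, the 2 called lower at -1.82 and -0.63, and the 16 others between -0.83 and 0.46.

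None of the 3 receptor chains was called in the beef mean, and 1, *ifngr1*, passed at an unadjusted limma p of 0.05 with the same fold. *Ifnar1* and *ifnar2*, the chains of the type I interferon receptor, had beef means of 0.10 and -0.21. *Ifngr1*, the ligand-binding chain of the interferon gamma receptor, had log2 ratios of 0.87, 0.93, 0.81, and -0.18 in LIM replicates 1 to 4 and of 1.11, -0.08, 0.33, and -0.15 in HER. It was above 0 on 5 of 8 arrays, and its ranges in LIM and HER overlapped. Both replicate 4 arrays, read as sharing an HF culture, were below 0. Its beef mean was 0.46 ± 0.18 (SE, n = 8, limma adjusted p = 0.0614), and without LIM replicate 4 it was called at 0.59 (adjusted p = 0.0149). The replicate block, which fits the pairing, called it in the beef mean (adjusted p = 0.03) and in LIM (adjusted p = 0.0448). In LIM it averaged 0.61 ± 0.53 (SD, n = 4, limma adjusted p = 0.0883), and 0.87 without replicate 4, where it was called (adjusted p = 0.0218). The beef mean stayed uncalled in 15 of 21 alternative settings run, and the LIM value in 16 of 20.

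The one transcription factor with a probe was *irf9*, the DNA-binding part of the complex that carries the type I interferon signal to the nucleus. Its log2 ratios were 0.47, 0.89, 0.33, and -0.57 in LIM and 1.17, 0.44, 0.63, and 0.16 in HER. It was above 0 on 7 arrays, with LIM replicate 4 below. The beef mean of 0.44 ± 0.17 (SE, n = 8) missed the threshold (limma adjusted p = 0.0607). Without LIM replicate 4, *irf9* was called in the beef mean (0.58, adjusted p = 0.00871) and in HER (0.60, adjusted p = 0.035). With the replicate block it was called in the beef mean (adjusted p = 0.0326). Its beef mean stayed uncalled in 16 of 21 alternative settings run, and its HER value in 17 of 20.

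Among the 6 genes of the ISG15 and ubiquitin system, 2 were lower in the beef mean, *isg15* and *trim21*. *Isg15* (NM_174366), the ubiquitin-like protein that interferon induces and that is joined to other proteins, had log2 ratios of -3.33, -1.31, -2.04, and -0.19 in LIM and of -1.64, -1.90, -2.59, and -1.54 in HER. All 8 were below 0, the HER arrays lay close together, and the LIM arrays held both the lowest and the highest value. The median processed intensity of its probe was 138 (range 64.7 to 337) in beef channels and 535 (range 231 to 1190) in HF channels. The difference between its duplicate spots had a median of 0.08 and reached 0.22 on the log2 scale, which is smaller than the spread between arrays. *Isg15* fell by 1.82 ± 0.30 on the log2 scale in the beef mean (SE, n = 8, 95% interval -2.51 to -1.13), a 3.52-fold lower level (limma adjusted p = 0.0018). It was called lower in LIM (-1.72 ± 1.32, SD, n = 4, limma adjusted p = 0.0157) and in HER (-1.92 ± 0.48, SD, n = 4, limma adjusted p = 0.0163). The LIM call was lost without LIM replicate 3 (-1.61, adjusted p = 0.0658), and the HER call without HER replicate 1, 2, or 3 (-2.01, -1.93, and -1.69, with adjusted p of 0.0569, 0.0629, and 0.0589). The LIM value did not pass the methods' t-test even unadjusted, and with normexp on the measured local backgrounds the HER value was -0.53 and not called (adjusted p = 0.418). The beef mean stayed called in all 21 alternative settings run, at its smallest as -0.82 with normexp on the measured local backgrounds.

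*Trim21* (NM_182655), a ubiquitin ligase that binds the constant part of antibodies inside cells, had log2 ratios of -0.83, -0.43, -0.62, and -0.32 in LIM and of -0.48, -1.20, -0.69, and -0.45 in HER. It was below 0 on every array, and the ranges of both breeds overlapped. Its median intensity was 381 (range 206 to 535) in beef channels and 576 (range 280 to 729) in HF channels. *Trim21* fell by 0.63 ± 0.11 on the log2 scale in the beef mean (SE, n = 8, 95% interval -0.87 to -0.38), a 1.54-fold lower level (limma adjusted p = 0.00196). It was called lower in both LIM (-0.55 ± 0.23, SD, n = 4, limma adjusted p = 0.0222) and HER (-0.70 ± 0.35, SD, n = 4, limma adjusted p = 0.0144). The LIM call was lost without LIM replicate 1, 2, or 3 (-0.46, -0.59, and -0.52, with adjusted p of 0.0866, 0.0523, and 0.0844), and the HER call without HER replicate 2 (-0.54, adjusted p = 0.0578). With normexp on the measured local backgrounds none of these calls held, at -0.28 in the beef mean (adjusted p = 0.0103) and -0.37 in LIM (adjusted p = 0.0124), both below the fold threshold, and -0.18 in HER (adjusted p = 0.309).

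The 4 other genes of this system were not called in the beef mean. *Uba7*, which activates ISG15 for its transfer, had log2 ratios of 0.35, 0.87, 1.13, and 0.29 in LIM and of 0.86, -0.77, -0.01, and -0.44 in HER, so all LIM arrays and 1 HER array were above 0. It averaged 0.66 ± 0.40 in LIM (SD, n = 4, limma adjusted p = 0.0775) and -0.09 ± 0.71 in HER (SD, n = 4, limma adjusted p = 0.821), and it was called higher in LIM without HER replicate 1 (0.66, adjusted p = 0.0311). The LIM value stayed uncalled in 17 of 20 alternative settings. *Herc6*, a ligase of the HERC family, had log2 ratios of 0.74, 0.88, 0.10, and -0.04 in LIM and of -0.92, -0.44, -0.45, and 0.19 in HER. Its beef mean was 0.01 (limma adjusted p = 0.97), and its second probe gave -0.23 (limma adjusted p = 0.337), and neither was called. Within each breed the 2 probes went the same way, at 0.42 and 0.27 in LIM and -0.40 and -0.72 in HER, none of them called. *Dtx3l* and *parp9*, partners in one ubiquitin ligase complex, had beef means of -0.08 and 0.08.

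**Figure D3:**
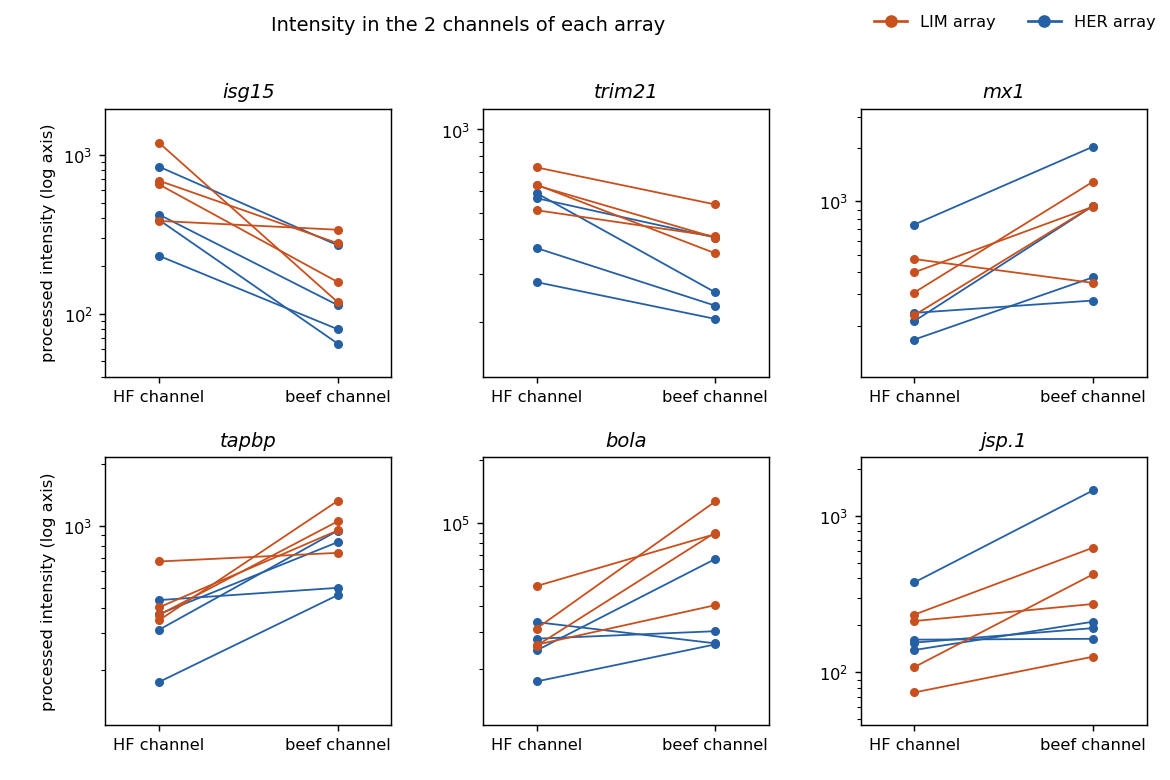
Processed intensity (y axis, log scale, a range of its own in each panel) of the HF channel and the beef channel of each array, joined by a line, for the 6 genes called in the beef mean, with LIM arrays in orange and HER arrays in blue. Every line falls for *isg15* and *trim21*, 7 of 8 lines rise for *mx1*, and the *bola* line of HER replicate 4 falls.

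Among the antiviral effectors, *mx1* was higher in the beef mean and 4 other tested genes were not called. *Mx1* (NM_173940), a GTPase that blocks viruses in the cell, had log2 ratios of 2.09, -0.44, 1.23, and 2.04 in LIM and of 1.17, 1.45, 0.23, and 2.15 in HER. It was above 0 on 7 arrays, with LIM replicate 2 below, and the ranges of both breeds overlapped. Its median intensity was 938 (range 277 to 2030) in beef channels and 272 (range 167 to 740) in HF channels. *Mx1* was 2.36-fold higher in the beef mean (log2 1.24 ± 0.31, SE, n = 8, 95% interval 0.54 to 1.94, limma adjusted p = 0.011). In LIM alone (1.23 ± 1.18, SD, n = 4, limma adjusted p = 0.0563) and in HER alone (1.25 ± 0.80, SD, n = 4, limma adjusted p = 0.0657) it was not called. The LIM value was called with the replicate block (adjusted p = 0.049). Both were called without LIM replicate 2, at 1.79 in LIM (adjusted p = 0.0109) and 1.25 in HER (adjusted p = 0.0282). The beef mean held with any single array left out, between 1.09 and 1.52, and was lost with both replicate 4 arrays left out (0.95, adjusted p = 0.0531), and with normexp on the measured local backgrounds it was 0.79 (adjusted p = 0.0364). On 7 of 8 arrays *mx1* was above 0 while *isg15* was below.

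*Mx2*, the paralog of *mx1*, had a beef mean of -0.08, *ifit5*, which binds foreign RNA ends, of -0.01, and *rsad2* (viperin, an antiviral enzyme) of 0.02. The second *rsad2* probe was well above background in 8 of 16 channels, had a beef mean of 0.65 (limma adjusted p = 0.581), and spread from -3.93 to 4.70 across arrays, against -0.44 to 0.40 for the brighter probe. *Samhd1* (NM_001075861), which breaks down nucleotides that viruses need, had log2 ratios of -0.56, -0.53, -0.72, and -0.84 in LIM and of -0.35, -0.08, 0.35, and 0.32 in HER. Every LIM array lay below every HER array. It was called lower in LIM (-0.66 ± 0.15, SD, n = 4, limma adjusted p = 0.00771) and averaged 0.06 ± 0.34 in HER (SD, n = 4, limma adjusted p = 0.767). Its LIM call held with any array left out and was lost with normexp on the measured local backgrounds (-0.33, below the fold threshold). In the beef mean it was -0.30 (limma adjusted p = 0.0345), below the fold threshold.

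None of the 4 other interferon-induced proteins was called in the beef mean, and 1, *xaf1*, passed at an unadjusted limma p of 0.05 with the same fold. *Xaf1*, which promotes cell death, had log2 ratios of -1.95, 0.03, -0.97, and 0.24 in LIM and of 0.23, -1.71, -2.14, and -0.40 in HER. In each breed the arrays ran from near -2 to slightly above 0, so the ranges overlapped nearly whole. Its beef mean was -0.83 ± 0.32 (SE, n = 8, limma adjusted p = 0.0615), and it was called without HER replicate 1 (-1.04, adjusted p = 0.035) or without LIM replicate 4 (-0.98, adjusted p = 0.0426), or with same-numbered arrays averaged (adjusted p = 0.0474). In 16 of 21 alternative settings this beef mean stayed uncalled. *Ifi35*, a cytoplasmic partner of NMI, had log2 ratios of -0.45, -0.25, 0.05, and -0.19 in LIM and of -0.13, -0.77, -0.29, and -0.48 in HER. It was below 0 on 7 arrays, and its beef mean of -0.31 ± 0.09 (SE, n = 8, limma adjusted p = 0.0248) lay below the fold threshold. In HER it was -0.42 (limma adjusted p = 0.0509), and it was called there without LIM replicate 4 (-0.42, adjusted p = 0.0483). The HER value stayed uncalled in 16 of 20 alternative settings. *Nmi* itself had a beef mean of 0.16 and *gbp5*, a guanylate-binding GTPase, of 0.21.

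All 3 antigen presentation genes with a probe, of 5 on the list, were called higher in the beef mean, beside 17.7% of all probes. In LIM 3 were called and in HER 1, and *bola* and *jsp.1* are not separate evidence, as set out below. *Tapbp* (NM_001045885) encodes tapasin, which holds empty class I molecules at the peptide transporter, and *bola* and *jsp.1* are bovine MHC class I genes. *Tapbp* had log2 ratios of 1.52, 1.24, 1.93, and 0.14 in LIM and of 1.60, 1.16, 1.40, and 0.20 in HER. Both replicate 4 arrays, which were read as sharing an HF culture and so are not independent, were near 0. The other arrays lay above 1. Its median intensity was 889 (range 460 to 1320) in beef channels and 370 (range 174 to 670) in HF channels. *Tapbp* was 2.22-fold higher in the beef mean (log2 1.15 ± 0.22, SE, n = 8, 95% interval 0.65 to 1.64, limma adjusted p = 0.00316). It was called in both LIM (1.21 ± 0.76, SD, n = 4, limma adjusted p = 0.0167) and HER (1.09 ± 0.62, SD, n = 4, limma adjusted p = 0.0339). These calls were lost in LIM without LIM replicate 1, 2, or 3 (1.11, 1.20, and 0.97, with adjusted p of 0.0618, 0.0549, and 0.0782). In HER they were lost without HER replicate 1, 2, or 3 (0.92, 1.07, and 0.99, with adjusted p of 0.136, 0.11, and 0.106) or LIM replicate 2 (1.09, adjusted p = 0.0523), with no filter on dim probes (1.09, adjusted p = 0.0519), and with normexp on the measured local backgrounds (0.37, adjusted p = 0.467). The LIM value missed the methods' t-test unadjusted too. The beef mean stayed called in all 21 alternative settings, at its smallest as 0.66 with normexp on the measured local backgrounds.

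*Bola* (NM_001038518) had log2 ratios of 0.63, 2.02, 1.81, and 0.83 in LIM and of 1.46, 0.12, 0.59, and -0.34 in HER. All LIM arrays were above 0, and HER ran from below 0 to a value within the LIM range. Its median intensity was 53800 (range 26200 to 127000) in beef channels and 27000 (range 17400 to 49900) in HF channels, with no saturated spot. *Bola* was 1.85-fold higher in the beef mean (log2 0.89 ± 0.23, SE, n = 8, 95% interval 0.37 to 1.41, limma adjusted p = 0.0124), a call that held in all 21 alternative settings. It was called in LIM (1.32 ± 0.69, SD, n = 4, limma adjusted p = 0.014) but not in HER (0.46 ± 0.77, SD, n = 4, limma adjusted p = 0.317). The LIM call was lost without LIM replicate 2 (1.09, adjusted p = 0.0606) or 3 (1.16, adjusted p = 0.0662).

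*Jsp.1* (NM_001040498) had log2 ratios of 0.77, 1.97, 1.42, and 0.36 in LIM and of 1.95, 0.60, 0.30, and 0.01 in HER. No array was below 0, and HER replicate 1 and LIM replicate 2 were highest. The replicate 4 arrays, read as sharing an HF culture, were each the lowest of their breed. Its median intensity was 242 (range 126 to 1460) in beef channels and 158 (range 74.4 to 376) in HF channels. *Jsp.1* was 1.90-fold higher in the beef mean (log2 0.92 ± 0.24, SE, n = 8, 95% interval 0.37 to 1.48, limma adjusted p = 0.0142). It was called in LIM (1.13 ± 0.71, SD, n = 4, limma adjusted p = 0.0333) but not in HER (0.72 ± 0.86, SD, n = 4, limma adjusted p = 0.152). The LIM call was lost without LIM replicate 1, 2, or 3 (1.25, 0.85, and 1.03, with adjusted p of 0.06, 0.13, and 0.117). It was also lost with normexp on measured (0.70, adjusted p = 0.115) or replaced backgrounds (0.74, adjusted p = 0.0773), with no background correction (0.86, adjusted p = 0.0587), with no filter on dim probes (1.13, adjusted p = 0.0503), and with the methods' t-test, so it held in 11 of 20 alternatives. The beef mean was not called with normexp on the measured local backgrounds (0.56, adjusted p = 0.0801). Class I genes are closely alike in sequence and vary between animals, so a probe may read more than one of them, and *bola* and *jsp.1* are not separate evidence.

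Further genes of antigen presentation, taken from a list of 24 of which 12 had a probe and 9 were tested, were called in 7 of 9 cases (77.8%) in the beef mean, beside 38.1% of all probes, with a median log2 ratio of 0.50 beside -0.04. Of these, 5 were higher and 2 were lower, and no test was made of the share itself. The list was chosen with earlier results of these data known, so the share cannot be read as independent support. *Pdia3*, a chaperone of the class I loading complex, was higher by 1.59 (limma adjusted p = 0.000272), with 1.52 in LIM and 1.65 in HER, both called. *Erap1*, which trims peptides, was higher by 0.76 (limma adjusted p = 0.0013), *b2m*, the light chain of class I, by 0.67 (limma adjusted p = 0.0183), and *calr*, the chaperone calreticulin, by 0.50 (limma adjusted p = 0.0124). *Erap1* and *b2m* were called in LIM and not in HER, and *calr* in HER and not in LIM. *Psmb8* and *psmb9*, interferon-inducible subunits of the immunoproteasome, were lower by the same test, at -0.94 (limma adjusted p = 0.00212) and -1.20 (limma adjusted p = 0.00938). In HER both were called lower (-1.29 and -1.64), and in LIM neither was (-0.59 and -0.77). The *psmb9* call in HER was lost without HER replicate 2 (-1.36, adjusted p = 0.098), 3 (-1.63, adjusted p = 0.0647), or 4 (-1.62, adjusted p = 0.0576) and with the replicate block (adjusted p = 0.057), and *psmb8* was called in LIM without HER replicate 1 (-0.59, adjusted p = 0.0303). The *b2m* beef mean was not called without HER replicate 1 (0.58, adjusted p = 0.0514) or LIM replicate 3 (0.62, adjusted p = 0.0516). Beef means of *b2m* (0.57), *calr* (0.40), and *psmb9* (-0.72) were not called with normexp on the measured local backgrounds, nor *calr* with same-numbered arrays averaged (adjusted p = 0.0544). The class II genes *bola-dra* and *bola-dqb* and the class II invariant chain *cd74*, defining genes of professional antigen-presenting cells, were well above background in 0 of 16 channels. *Bola-dmb*, a chain of the class II peptide-loading molecule, was well above background in all 16 channels, with a beef mean of 0.62 (limma adjusted p = 0.0572, unadjusted p = 0.0282).

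**Figure D4:**
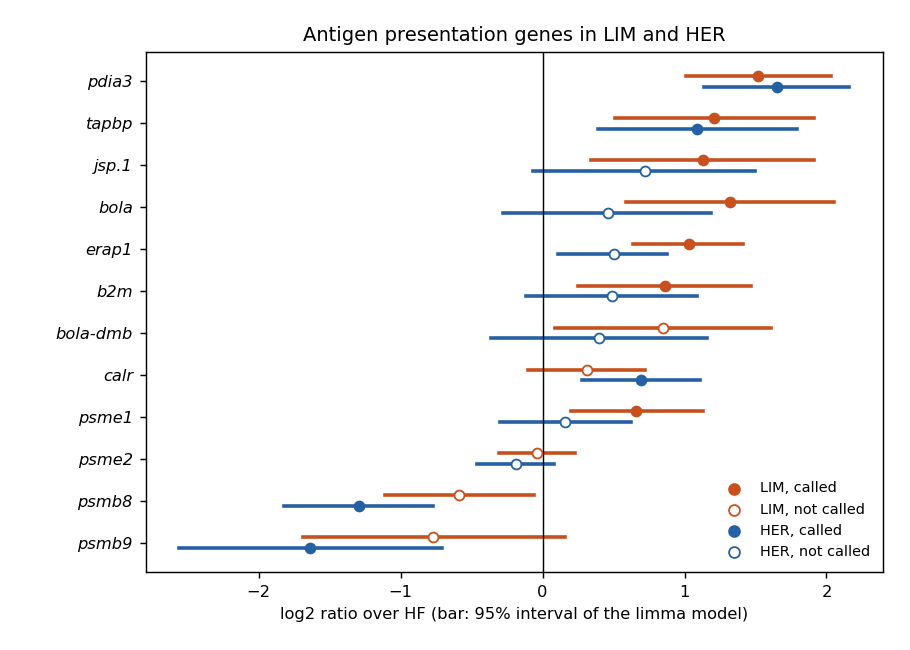
Mean log2 ratio over HF (x axis) of LIM (orange) and HER (blue), 4 arrays each, for the 12 tested antigen presentation genes, with the 95% interval of the limma model as a bar and filled points where called. *Pdia3* and *tapbp* are called higher in both breeds, and *psmb8* and *psmb9* lie at the bottom, called lower in HER at -1.29 and -1.64.

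Of 40 other genes of the interferon pathway 19 had a probe and 16 were tested, and 4 (25%) were called in the beef mean, 2 higher and 2 lower, beside 38.1% of all probes. In LIM 7 of 16 (43.8%) were called, beside 34.3% of all probes, and in HER 4 (25%), beside 24.4%. *Ifi30*, a lysosomal thiol reductase of antigen processing, was higher by 1.21 (limma adjusted p = 0.00114) and *tyk2*, a Janus kinase of the type I receptor, by 0.46 (limma adjusted p = 0.00654). *Irf5*, a transcription factor of the interferon regulatory family, was lower, at -1.27 (limma adjusted p = 0.00029), as was *pias1*, a SUMO ligase, at -1.29 (limma adjusted p = 0.000482). *Tyk2* was called in LIM and not in HER (0.36, limma adjusted p = 0.0955), whereas *ifi30*, *irf5*, and *pias1* were called in both. The *pias1* call in HER was lost in 10 of 20 alternative settings, among them each fit with a HER array left out. The chemokine *cxcl10*, a common interferon target, had a beef mean of 0.10 (limma adjusted p = 0.346). The interferon genes *ifnb1* and *ifng* were well above background in 1 of 16 channels each.

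LIM and HER were compared through the difference of their ratios to HF, which also holds any dye or slide effect. No gene of the list was called, where 0.233% of all probes were, and 2 genes, *herc6* and *samhd1*, passed an unadjusted limma p of 0.05 with the same fold, as did 14.1% of all probes. The methods' t-test gave 0 after adjustment and 2 without it. The difference was -0.73 for *samhd1* (95% interval -1.17 to -0.28, limma adjusted p = 0.164). For *herc6* it was 0.82 (95% interval 0.14 to 1.50, limma adjusted p = 0.251) and 0.99 on its second probe (limma adjusted p = 0.26). For *bola* it was 0.87 (95% interval -0.17 to 1.90, limma adjusted p = 0.421) and for *uba7* 0.75 (limma adjusted p = 0.388). That *bola* was called in LIM and not in HER therefore does not show a difference between the breeds.

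**Figure D5:**
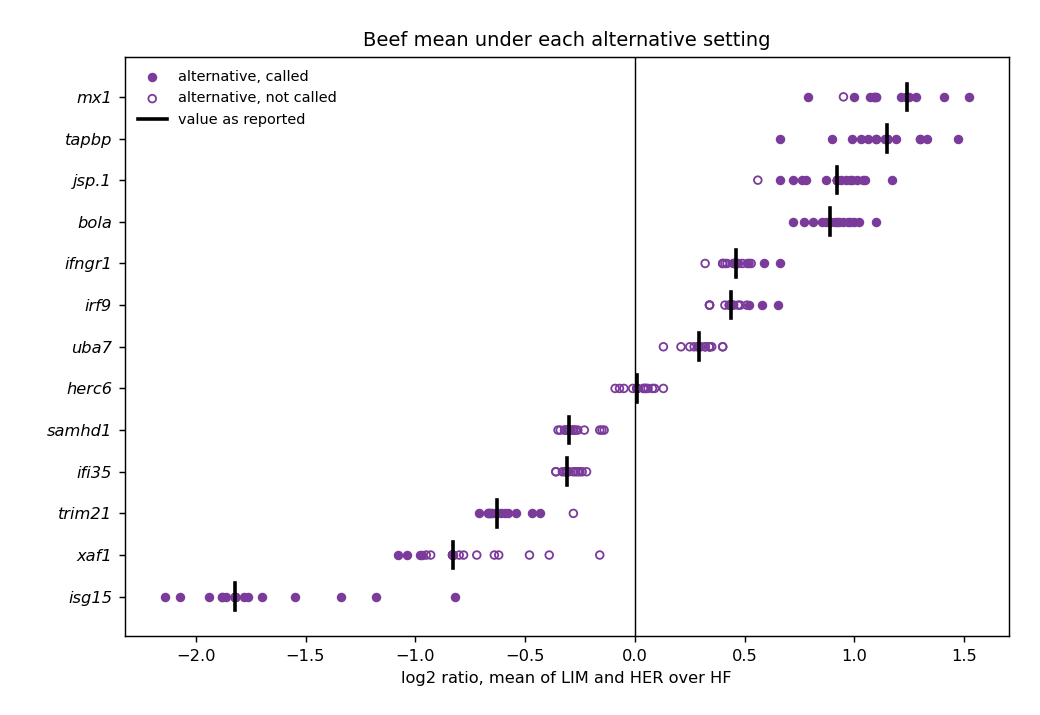
Beef mean log2 ratio (x axis) of the 13 genes described array by array, as reported (black bar) and under each of 21 alternative settings (purple, filled where called). *Isg15* stays called between -2.14 and -0.82, *tapbp* between 0.66 and 1.47, and *bola* between 0.72 and 1.10.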

How the data were processed

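Muscle cell cultures of 3 cattle breeds were compared on 8 two-colour arrays, and the sample labels gave the breed, the dye, and the replicate number of each. The authors deposited the output of Feature Extraction 10.7.3.1 for each array, with the intensity of each spot in both dyes, detection marks, and a background-subtracted, dye-normalized log10 ratio (red to green), and a series table with the same log10 ratio. Where the software found neither channel above background, the ratio is listed as 0.

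The log10 ratio was converted to log2 and its sign turned on HER arrays to give beef over HF. Control spots and outlier spots were left out (none of the outlier spots belonged to the genes reported), and spots of one probe were averaged. Probes had to be well above background in 4 or more of 16 channels, which 17631 of 21475 were. One model of all 8 arrays was fitted with limma 3.58.1 (lmFit, eBayes) in R 4.3.3, with a mean for each comparison. The methods' threshold, an unadjusted p of 0.05 with a fold change of 1.3, was run beside the adjusted one. The test was checked on simulated data drawn independently for each array. The simulation held no shared HF culture and no dye or slide effect, so it does not check the test for these. The number of arrays limits the precision, and the median difference between duplicate spots was 0.07 on the log2 scale.

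Symbols came from a RefSeq table on assembly ARS-UCD2.0 (8297 probes named). Coordinates and sequences are not given, since the array rests on another build. Values on every array are given for the 12 genes with the largest beef mean and the 4 with the largest difference between LIM and HER, sign aside. To these were added *mx1*, *isg15*, *irf1*, *tap1*, *bola*, and *jsp.1*, which gave 13 genes with a tested probe in all. From each list of further genes, up to 6 called in the beef mean are given, and some genes of the interferon pathway are not reported here. The genes and lists were chosen with earlier results of these data known. Alternatives changed the background correction, normalization, filter, test, threshold, and arrays. Same-numbered arrays of LIM and HER were read as pairs from the HF channel, whose deviations correlated at 0.58, 0.56, 0.58, and 0.78 for replicates 1 to 4, each the best match of its own number. This check was added after the results were known, and the fit without the block was kept as designed.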

Additional observations from a re-analysis of the deposited data

Results flagged for a closer look

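In groups of 4 arrays, the distance of the highest or lowest array to its nearest neighbour was set against the range of the group for each tested gene in each comparison, 44 groups in all. Only 2 values stood apart, and chance gives about 1 in 20 groups. *Ifngr1* was -0.18 on LIM replicate 4, where the other 3 LIM arrays were between 0.81 and 0.93, a gap of 0.891 of the range. *Mx2* was 0.33 on the same array, where the other 3 LIM arrays were between -0.17 and -0.14, a gap of 0.945 of the range.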

How the results depend on the processing

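The count of genes called in the beef mean was 6 and stayed between 4 and 9 under all alternatives run. In LIM the count of 6 became 3 with normexp on the measured local backgrounds, 1 with the methods' t-test after adjustment, and between 1 and 7 with one array left out, with the lowest value without LIM replicate 3 and 3 without LIM replicate 1 or 2. In HER the count of 3 became 0 with the same background correction, 0 with the methods' t-test after adjustment, 6 at the unadjusted p, 5 with array weights, and between 0 and 5 with one array left out, 0 without HER replicate 2, 1 without HER replicate 1 or 3, and 5 without LIM replicate 4. For the difference between LIM and HER the count of 0 became 2 at the unadjusted p, with limma and with the methods' t-test. Over all probes, the share called in HER was 24.4% as reported, 0% with normexp on the measured local backgrounds, 0.0113% with the methods' t-test after adjustment, and 8.66% to 30.8% with one array left out. In LIM it was 34.3% as reported, 5.68% with that t-test, and 21.5% at its lowest, without LIM replicate 3, and in the beef mean it was 38.1% as reported and 18.7% with normexp on the measured local backgrounds. Of the probes called in HER 42.6% were higher, against 54.8% with outlying backgrounds replaced and loess and 55.1% with no background correction and loess. No called value of the genes described changed sign. The cause of these changes was not tested, and leaving out an array also changes the number of arrays.

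Same-numbered arrays were read as pairs from their HF channels, although the deviations of the ratios themselves correlated at -0.24, 0.13, 0.30, and 0.54 for replicates 1 to 4. With the replicate block the counts were 8 in LIM, 3 in HER, 8 in the beef mean, and 0 for the difference. Among the genes described, the block added calls for *mx1* and *ifngr1* in LIM, *erap1* in HER (0.50, limma adjusted p = 0.0481), and *ifngr1* and *irf9* in the beef mean, ended those of *psmb9* and *pias1* in HER (-0.78, limma adjusted p = 0.0824), and changed no other call. With 4 arrays per comparison an exact sign-flip test of a single gene cannot give a p below 0.125. Leaving out both replicate 4 arrays, averaging same-numbered arrays, and the alternatives for genes outside the list were chosen after seeing the data.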
